A study of Mus musculus with 30 samples.

Results

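Young hippocampal cells with an active paternal X chromosome (Xp) were compared with cells of the same mice with an active maternal X chromosome (Xm). The members were the 5 Xm and 5 Xp samples labelled young, 10 of the 30 samples of the series, and every gene with a mean of at least 10 normalised counts over those 10 samples, which was 19328 of the 19345 genes in the table of the young samples. All mice were female reporter mice on a congenic C57BL/6J background. They carried floxed nuclear reporters at the Hprt locus, GFP on the maternal X and tdTomato on the paternal X, and these were switched on by Cre under the promoter of synapsin 1, a neuronal gene. Xm cells are therefore GFP cells and Xp cells are tdTomato cells in every sample, so the parent of the active X and the colour of the reporter cannot be told apart here. Hippocampi of several young mice were pooled, a density gradient was used to enrich neurons, and each pool was sorted into an Xm and an Xp sample, so that samples of the same number share a pool. The labels give brain as the tissue and neurons as the cell type of all 10 samples, and give no age in numbers.

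In the embryo of a female mouse each cell silences either its maternal or its paternal X chromosome, at random, and daughter cells inherit the choice. The comparison asks which genes are read differently by cells that differ in the parent of their active X. The hippocampus holds excitatory and inhibitory neurons beside astrocytes, oligodendrocytes, microglia and vascular cells, and each of these cell types can be followed in bulk RNA by families of genes with a known role. In bulk samples, fewer cells of a type and less RNA per cell cannot be told apart.

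Young Xm samples held 26651599 to 28518774 reads in genes and young Xp samples 26457997 to 27421257, and the 10 most abundant genes took 5.43% to 10.3% of the normalised counts. Markers of neurons were present in all 10 samples, but so were those of other cell types. The 16 pan-neuronal markers summed to 26830.1 to 77599.5 normalised counts in Xm samples and 14050 to 41656 in Xp samples. The 12 markers of oligodendrocytes, the cells that make myelin, summed to 434654 to 1141150 in Xm and 247008 to 725829 in Xp samples. The 20 markers of microglia, the macrophages of the brain, summed to 4775 to 16229.7 in Xm and 133213 to 292681 in Xp samples. None of these markers was at 0 in any sample, and the sums of neuronal and oligodendrocyte markers overlapped between Xm and Xp, whereas the sums of microglial markers did not.

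With the pool fitted as a block, 7445 genes had an adjusted p under 0.05 for Xp against Xm (limma on log2 of the normalised count plus 1, two-sided, Benjamini-Hochberg over all 19328 genes), which was 38.5% of the genes tested. Of these, 3737 were higher in Xp (19.3%) and 3708 lower (19.2%). The split was 4030 higher and 3284 lower after TMM rescaling, 3967 and 3251 by edgeR, and 2114 and 1180 without the block. Genes higher in Xp by more than 1 log2 unit numbered 1676 (8.67%) and genes lower by more than 1 numbered 609 (3.15%), and beyond 4 log2 units 137 genes were higher and 0 lower. The count of 609 was 399 without pool 2, 397 in pools 3 to 5 alone and 204 without the block. All 5 Xp values lay above all 5 Xm values for 1823 genes (9.43%) and below them for 907 (4.69%). Counts of list members that rose, fell or did not overlap are to be read beside these shares of all genes tested. Fold changes below are log2 of Xp over Xm with the standard error (SE) over 5 pools, and every adjusted p is from this limma fit unless another tool is named.

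Genes were ranked by fold change among those called, of 1 direction in all 5 pools and with a mean of at least 100 normalised counts in the higher group. Outside the microglia marker list, the 15 largest excesses in Xp among these belonged to Crybb1, P2ry13, Cd300lb, Rasal3, Slc2a5, Bin2, Csf3r, Il1a, Clec5a, Tifab, Fcgr3, Sash3, Nfam1, Il10ra and Vav1. That list holds only 20 markers, so a gene outside it can still be one that microglia express. The part of microglia in these 15 excesses was not tested. P2ry13 (chr3:59207892-59210882), which encodes a receptor for ADP, measured 73.4, 35.9, 87.2, 66.3 and 206 normalised counts in the Xm samples of pools 1 to 5 and 3013, 2853, 4632, 6333 and 5266 in the Xp samples of the same pools (5.71 ± 0.26, adjusted p = 1.61e-05). Slc2a5 (chr4:150119283-150144169), a fructose transporter, measured 44.8, 13.6, 33.8, 43.5 and 156 in Xm and 1466, 1484, 2072, 3039 and 2710.3 in Xp (5.55 ± 0.35, adjusted p = 4.95e-05). Each Xp value of these genes lay above every Xm value, and among the Xm samples that of pool 5 was highest. Il1a (chr2:129299610-129309972), which encodes the cytokine interleukin 1 alpha, was likewise highest in pool 5 among the Xm samples, with 225, 139.8, 192, 168 and 822 in Xm and 5231, 5576, 9377, 14463 and 24483 in Xp (5.35 ± 0.25, adjusted p = 2.09e-05). Il10ra (chr9:45253837-45269149), the receptor chain that binds interleukin 10, measured 63.8, 51.5, 79.7, 52.4 and 198 in Xm and 1633, 1437, 3039.9, 4174 and 4756 in Xp (5.11 ± 0.24, adjusted p = 1.35e-05). Crybb1 (chr5:112255815-112269585), a crystallin gene that microglia also express, was close to absent in the Xm samples of pools 1 and 2, with 0.953, 0.971, 8.44, 10.9 and 33.7 in Xm against 232, 262, 598, 752 and 671 in Xp (6.04 ± 0.38, adjusted p = 2.19e-05).

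**Figure D1:**
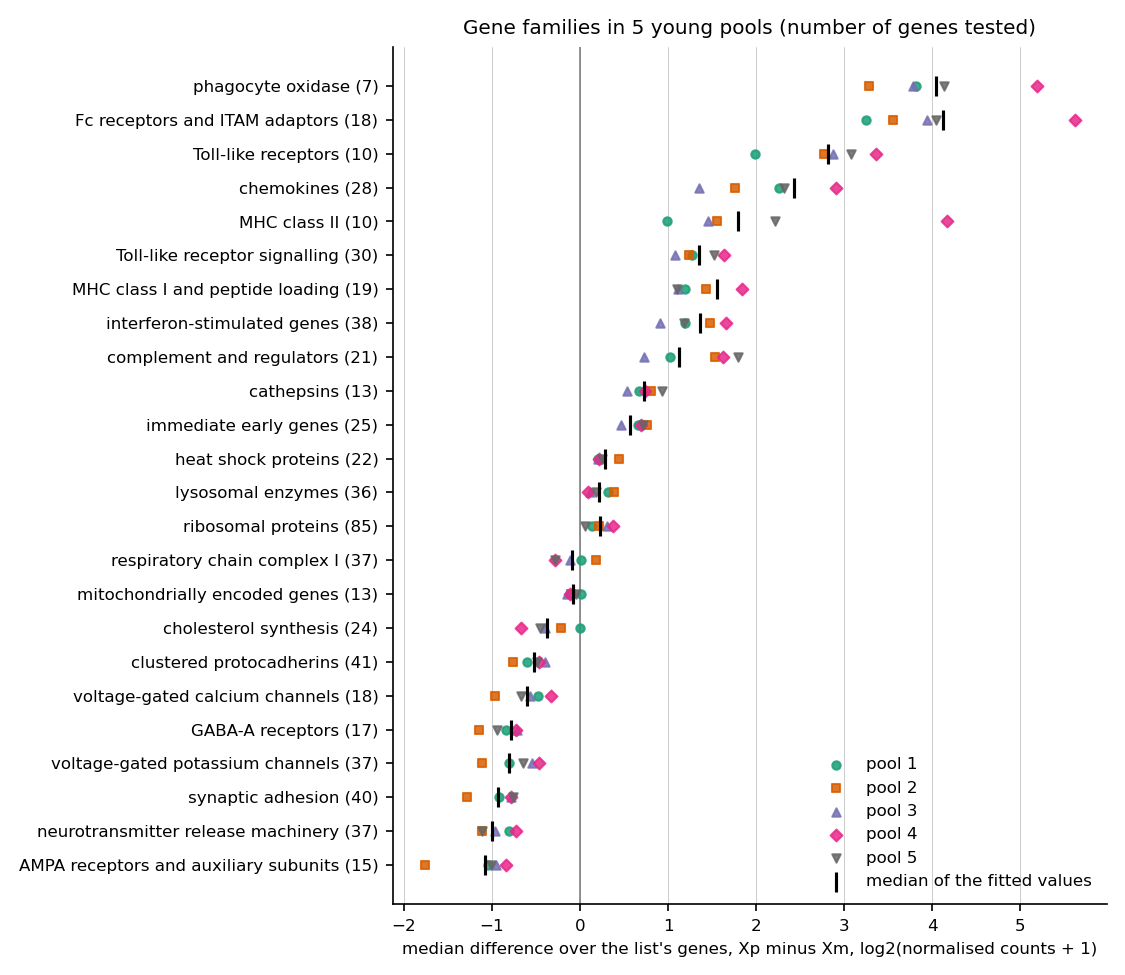
Median over the genes of each list of the difference Xp minus Xm, on the scale of log2(normalised counts + 1), in each of the 5 young pools (coloured points) and as fitted (black bars), with the number of genes tested in brackets. Lists of phagocyte and immune genes lie to the right of 0 in all 5 pools, up to a fitted median of 4.12 for Fc receptors and their adaptors, and the lists of synapse genes and of voltage-gated channels drawn here have fitted medians to the left, down to −1.08 for AMPA receptors.

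The 10 lists of innate immune genes, from antigen presentation to the phagocyte oxidase, held 199 genes tested, 7 of which are also microglia markers. Of these, 165 rose in Xp and 3 fell, beside 19.3% and 19.2% of all genes tested. The median fold change was 1.71 beside −0.03 over all genes tested. For 140 of the 199 the Xp values lay entirely above the Xm values, beside 9.43% of all genes tested. Microglia markers moved in the same direction, with 20 of 20 called higher in Xp, none at 0 in any sample and a median of 4.98, and 8 of 8 markers of the macrophages at the borders of the brain were also called higher. The part of these cells in the immune families was not tested.

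Most genes of antigen presentation were higher in Xp. MHC class I molecules show peptides from within the cell to T cells, and all 19 members tested, including the peptide loading genes, rose in Xp (median 1.56). B2m (chr2:122147686-122153083), the light chain shared by MHC class I molecules, measured 3358, 4369, 4331, 2337 and 3871 in Xm and 9590.1, 16064, 14274, 14743 and 14782 in Xp (1.94 ± 0.15, adjusted p = 6.36e-05). H2-K1 (chr17:33996017-34000347), a heavy chain, measured 2751, 3749.6, 4686, 2773 and 3829 in Xm and 8022, 11167, 11949, 12509.9 and 13391 in Xp (1.69 ± 0.11, adjusted p = 2.26e-05), although reads of H2 genes can be shared with near-identical neighbours. Tap1 (chr17:34187553-34197225), which carries peptides into the endoplasmic reticulum, changed less, with 357 to 516 in Xm and 635 to 866 in Xp (0.94 ± 0.10, adjusted p = 0.000163). None of these 3 genes overlapped between the groups. Of the 10 MHC class II genes, which show engulfed peptides, 9 rose (median 1.80), beside 19.3% of all genes tested. The number was 7 without pool 2 or without pool 5, and 5 in pools 3 to 5 alone. H2-Ab1 (chr17:34257689-34269419), a chain of the class II molecule, measured 746, 619, 900.4, 139.5 and 294 in Xm and 1302, 1319, 1545, 2720.2 and 1462 in Xp (1.85 ± 0.50, adjusted p = 0.0241), so that the groups did not overlap and the difference was widest in pool 4. Without pool 2, without pool 5 or in pools 3 to 5 alone H2-Ab1 was not called (adjusted p = 0.0606, 0.0708 and 0.18).

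Interferon-stimulated genes rose nearly as a whole. Of 38 tested, 36 rose in Xp and none fell (median 1.36), beside 19.3% and 19.2% of all genes tested. Every Xp value lay above every Xm value for 9.43% of all genes tested and for 29 of these 38. Many such genes carry an interferon-stimulated response element, a sequence bound by transcription factors of interferon signalling, near their start. Its core was searched as GAAA, any 2 bases and GAAA again, on both strands, with overlapping matches counted, in the RefSeq promoters of GRCm38.p6 from 250 bases before to 50 bases after each start. It was found for 18 of the 29 interferon-stimulated genes with a promoter in the table (62.1%), for 5 of 17 genes of MHC class I (29.4%) and for 1079 of 27025 genes in all (3.99%). A match describes the letters and shows neither binding nor a cause. The 150 bases before the RefSeq start are shown for 7 genes called higher in Xp, because they cover antiviral effectors (Ifit1, Ifit3, Isg15, Rsad2, Oas1a), a GTPase (Gbp2) and the MHC class I light chain (B2m). Gene coordinates in the text are those of GENCODE, whose starts can differ. Those of Gbp2, Ifit1 and B2m begin before the stretch ends, and the match of Gbp2 lies within the gene as given there. Capitals mark the matches of the interferon-stimulated response element, which on the opposite strand read TTTC, any 2 bases and TTTC. The stretches are chr19:34640739-34640888 (+), chr19:34583379-34583528 (+), chr4:156200819-156200968 (−), chr12:26456453-26456602 (−), chr5:120907526-120907675 (−), chr3:142620513-142620662 (+) and chr2:122147537-122147686 (+).
Ifit1: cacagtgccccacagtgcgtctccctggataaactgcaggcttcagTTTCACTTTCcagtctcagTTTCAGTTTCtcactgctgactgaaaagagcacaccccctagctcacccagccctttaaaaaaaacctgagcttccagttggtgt
Ifit3: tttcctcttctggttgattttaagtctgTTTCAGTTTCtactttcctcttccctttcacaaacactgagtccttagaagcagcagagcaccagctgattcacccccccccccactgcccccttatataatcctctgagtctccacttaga
Isg15: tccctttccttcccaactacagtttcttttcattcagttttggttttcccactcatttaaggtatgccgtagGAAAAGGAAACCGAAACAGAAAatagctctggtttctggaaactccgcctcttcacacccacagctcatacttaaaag
Rsad2: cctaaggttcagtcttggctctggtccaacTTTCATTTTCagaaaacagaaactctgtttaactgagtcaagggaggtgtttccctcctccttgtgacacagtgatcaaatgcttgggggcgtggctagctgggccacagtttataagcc
Oas1a: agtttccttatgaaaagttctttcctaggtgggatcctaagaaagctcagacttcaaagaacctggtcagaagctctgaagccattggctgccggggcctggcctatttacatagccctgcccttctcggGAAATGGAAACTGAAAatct
Gbp2: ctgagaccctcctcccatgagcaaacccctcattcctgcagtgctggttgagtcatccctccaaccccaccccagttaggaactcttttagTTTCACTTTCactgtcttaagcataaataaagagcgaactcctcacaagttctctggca
B2m: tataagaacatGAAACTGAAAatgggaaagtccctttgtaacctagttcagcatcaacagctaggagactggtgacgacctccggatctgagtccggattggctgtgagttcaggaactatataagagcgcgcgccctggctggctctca

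The genes behind these promoters were all higher in Xp, in each pool. Isg15 (chr4:156199424-156200818), a ubiquitin-like modifier, measured 83.8, 89.3, 92.9, 30.7 and 85.7 in Xm and 207, 298, 299, 299 and 433 in Xp (2.05 ± 0.26, adjusted p = 0.000378). Ifit1 (chr19:34640871-34650009), which binds foreign RNA caps, measured 251, 523, 558, 168 and 511 in Xm and 828, 1449, 1083, 1227 and 1742 in Xp (1.75 ± 0.24, adjusted p = 0.000941). Rsad2 (chr12:26442746-26456452), the antiviral enzyme viperin, measured 162, 316, 409.9, 182 and 408 in Xm and 445, 1269.8, 1027, 934 and 1106 in Xp (1.71 ± 0.16, adjusted p = 7.83e-05). In each of the 3 genes the Xm sample of pool 1 or pool 4 was lowest and the groups did not overlap. Gbp2 (chr3:142620602-142638008) measured 126 to 578 in Xm and 902 to 1491 in Xp (1.85 ± 0.23, adjusted p = 0.000554), Oas1a (chr5:120896256-120907521), a sensor of double-stranded RNA, 20.8 to 80.9 in Xm and 124 to 373 in Xp (1.83 ± 0.26, adjusted p = 0.000651), and Ifit3 (chr19:34583531-34588731) 355 to 791 in Xm and 945 to 1805 in Xp (1.08 ± 0.10, adjusted p = 7.37e-05). Ifnar1, a chain of the type I interferon receptor, rose by 0.88 ± 0.09 (adjusted p = 9.77e-05), and the transcription factor Stat2 by 0.49 ± 0.08 (adjusted p = 0.00139), whose values overlapped between the groups.

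Receptors that sense microbes and the cytokines they induce showed larger differences. Of 10 Toll-like receptors tested, 8 rose (median 2.82). Tlr2 (chr3:83836272-83841767), which senses bacterial lipoproteins, measured 402, 335, 258, 106 and 322 in Xm and 2343, 2254, 3414, 5006 and 4987 in Xp (3.70 ± 0.41, adjusted p = 0.000404). Tlr3, a receptor for double-stranded RNA, was not called, with 519, 604, 1708, 2957 and 1331 in Xm and 689, 924, 1469.9, 1902 and 1265 in Xp (0.02 ± 0.17, adjusted p = 0.944), and was low in both samples of pools 1 and 2. Of 30 genes of Toll-like receptor signalling, 24 rose and 1 fell. Myd88 (chr9:119335934-119341411), the adaptor of most of these receptors, measured 528, 464, 647, 531 and 611 in Xm and 1319.5, 1455, 1794, 2297 and 2588 in Xp (1.73 ± 0.13, adjusted p = 3.61e-05). Irak1, a kinase further down the chain, was not called (−0.02 ± 0.23, adjusted p = 0.959). With 2148, 2272, 2237, 1744 and 1330.2 in Xm and 1287, 1587, 2072, 2372 and 2365 in Xp, it was higher in Xm in pools 1 to 3 and higher in Xp in pools 4 and 5.

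Of 28 chemokines tested, 19 rose and 2 fell (median 2.43), beside 19.3% and 19.2% of all genes tested. Ccl3 (chr11:83647844-83649355), which attracts leukocytes, measured 141, 95.2, 199, 83.1 and 506 in Xm and 3184, 3322, 4962, 7410.5 and 12009 in Xp (5.05 ± 0.28, adjusted p = 3.84e-05). Ccl4 beside it on chromosome 11 (chr11:83662584-83664683) was also highest in pool 5 in both groups (5.00 ± 0.27, adjusted p = 3.34e-05). The 2 chemokines that fell were Cxcl14 (−0.39 ± 0.11, adjusted p = 0.0191) and Ccl27a (−0.45 ± 0.14, adjusted p = 0.0308). Ccl27a was not called by edgeR (adjusted p = 0.0528) or after TMM rescaling (0.0526), and with a pool left out 0 or 1 chemokines were called lower. Cx3cl1, the ligand with which neurons address microglia, was not called (3093 to 10526 in Xm and 3959 to 7709 in Xp, 0.03 ± 0.11, adjusted p = 0.864). Of 18 chemokine receptors, 11 rose and none fell, beside the same shares of all genes tested.

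Of the 10 immune lists, those of Fc receptors with their adaptors and of the phagocyte oxidase had the largest medians. Of 18 Fc receptors and adaptors of the ITAM pathway, which turn bound antibody into a tyrosine kinase signal, 17 rose (median 4.12). Fcgr3 (chr1:171051174-171064935), a receptor for IgG, measured 105, 94.2, 166, 57.4 and 232 in Xm and 2597, 2626, 4464, 6619 and 6732 in Xp (5.16 ± 0.32, adjusted p = 5.19e-05), and the kinase Syk (chr13:52583173-52648792) 81.0, 67.0, 72.2, 85.1 and 84.8 in Xm and 669.8, 489.6, 984, 1272 and 1454 in Xp (3.52 ± 0.20, adjusted p = 1.02e-05). Syk varied little within Xm, and its lowest Xp value was several times its highest Xm value. All 7 genes of the phagocyte oxidase, which makes superoxide, rose (median 4.04), among them Ncf1 (chr5:134220053-134229625) with 23.8, 31.1, 47.8, 21.8 and 54.9 in Xm and 732, 843, 1280.4, 1487 and 1449 in Xp (5.01 ± 0.21, adjusted p = 2.48e-06). Of 21 complement genes and regulators, 15 rose and none fell (median 1.12). The receptor genes C3ar1 (4.33 ± 0.33, adjusted p = 9.06e-05) and C5ar1 (4.47 ± 0.36, adjusted p = 0.000116) rose more than C3 itself (0.84 ± 0.15, adjusted p = 0.0021). Degradation showed smaller changes. Of 13 cathepsins 8 rose, such as Ctsz (1.49 ± 0.10, adjusted p = 1.91e-05), and of 36 lysosomal enzymes and membrane proteins 19 rose and 3 fell (median 0.22). Of 20 subunits of the proton pump V-ATPase 1 rose and 6 fell, beside 19.3% and 19.2% of all genes tested. The number of pump subunits called lower was 3 without pool 3 and 4 by edgeR.

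**Figure D2:**
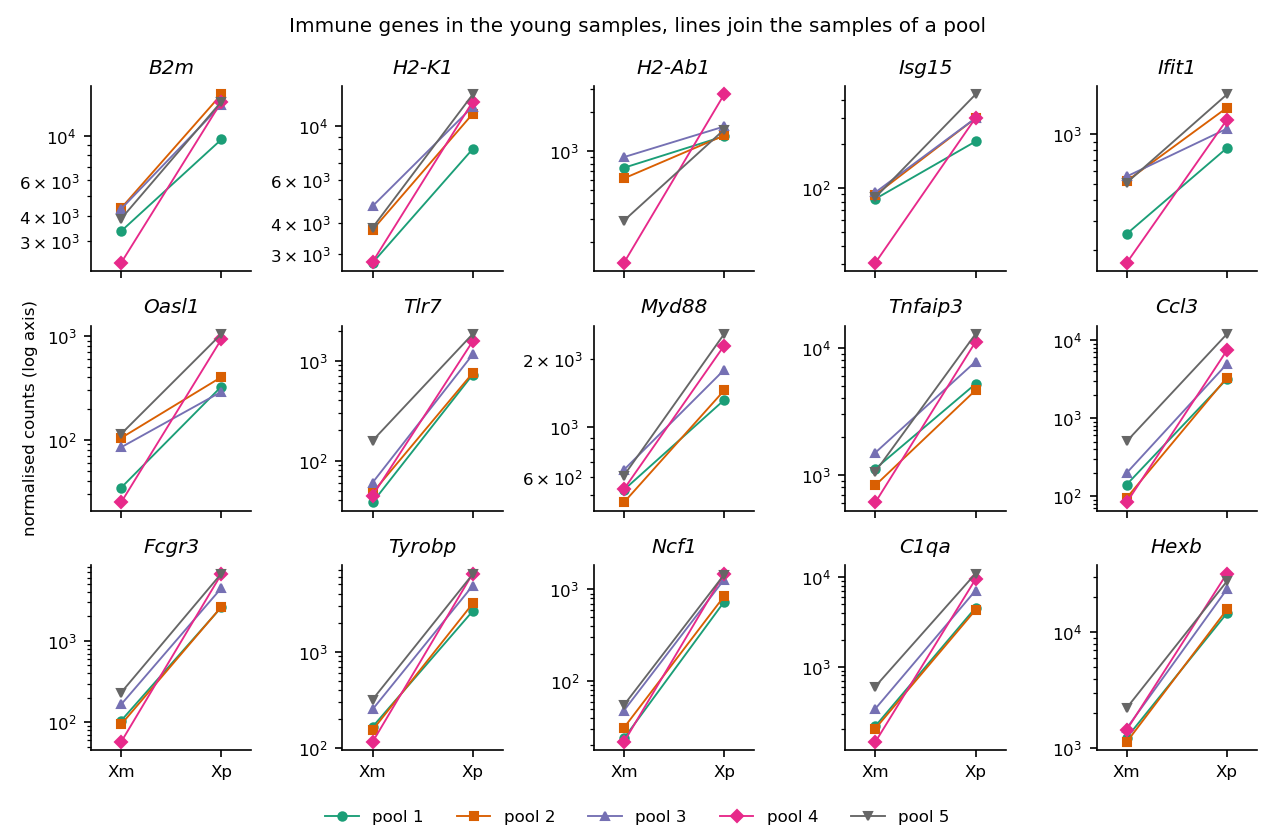
Normalised counts (log axis) of 15 immune genes in the Xm and Xp sample of each young pool, with a line joining the samples of a pool. Every line rises from Xm to Xp, with B2m at 2337 to 4369 in Xm and 9590.1 to 16064 in Xp and Ncf1 at 21.8 to 54.9 in Xm and 732 to 1487 in Xp.

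Synapse genes formed the largest group of families that were lower in Xp. The 9 lists of receptors, release machinery, scaffolds and adhesion molecules held 168 genes tested. Of these, 136 fell and 2 rose (median −0.95), beside 19.2% and 19.3% of all genes tested. The Xp values lay entirely below the Xm values for 33 of the 168, beside 4.69% of all genes tested. The pools differed in level for 115 of the 168 (F test of the pool term, described with the spread between pools). Without the pool as a block the number that fell was 55, and within pools 3 to 5 alone it was 127. General markers of neurons moved the same way, with 13 of 16 called lower in Xp and a median of −0.88, and their part in the synapse families was not tested.

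Receptors for glutamate, the main excitatory transmitter, were lower in Xp in nearly all cases. Of 31 genes for AMPA, NMDA, kainate and delta receptors and their auxiliary subunits, 28 fell and none rose. Over all genes tested 19.2% fell and 19.3% rose. Gria2 (chr3:80681450-80802835), the AMPA receptor subunit that keeps calcium out, measured 20392, 16463, 12893, 14360 and 12798 in Xm and 9714, 7425, 7016, 8647 and 8280.2 in Xp (−0.89 ± 0.09, adjusted p = 9.24e-05), with all Xp values below all Xm values. Gria1 (chr11:57011387-57330244), the subunit typical of pyramidal cells, measured 7654, 4203, 2067, 1899.6 and 2552 in Xm and 3436, 1245, 937, 1154 and 821 in Xp (−1.28 ± 0.14, adjusted p = 0.000241). It was lower in Xp in each pool, but the Xp sample of pool 1 exceeded the Xm samples of pools 3 to 5. Grin2a (chr16:9567898-9995560), an NMDA receptor subunit of mature synapses, ranged still more widely between pools, with 2431, 1302, 337, 165 and 345 in Xm and 1144, 393, 91.2, 84.5 and 115 in Xp (−1.44 ± 0.15, adjusted p = 0.00014). Grik2 (chr10:49094833-49788766), a kainate receptor subunit, varied little between pools, with 1438, 1599, 947, 1193 and 1243 in Xm and 662, 658, 567, 675 and 674 in Xp (−0.97 ± 0.10, adjusted p = 0.000103). Of 8 metabotropic receptors 5 fell, beside 19.2% of all genes tested.

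Receptors for the inhibitory transmitter GABA were also lower in Xp. Of 17 GABA-A subunits 13 fell and none rose (median −0.78), beside 19.2% and 19.3% of all genes tested. Gabra2 (chr5:70957597-71095849), one of these subunits, measured 1498, 979.9, 1017, 1094 and 913 in Xm and 761, 450.0, 703, 694 and 517 in Xp (−0.82 ± 0.10, adjusted p = 0.000275), without overlap. Gphn (chr12:78226379-78684772), the scaffold gephyrin of inhibitory synapses, fell by less (−0.47 ± 0.06, adjusted p = 0.000489). Kctd12 (chr14:102976581-102982637), which encodes an auxiliary subunit of GABA-B receptors and is also found outside neurons, went the other way, with 423, 324, 246, 111 and 245 in Xm and 712, 696, 1030.5, 1278 and 1135 in Xp (1.93 ± 0.37, adjusted p = 0.00553), and the lowest Xp value was above the highest Xm value.

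**Figure D3:**
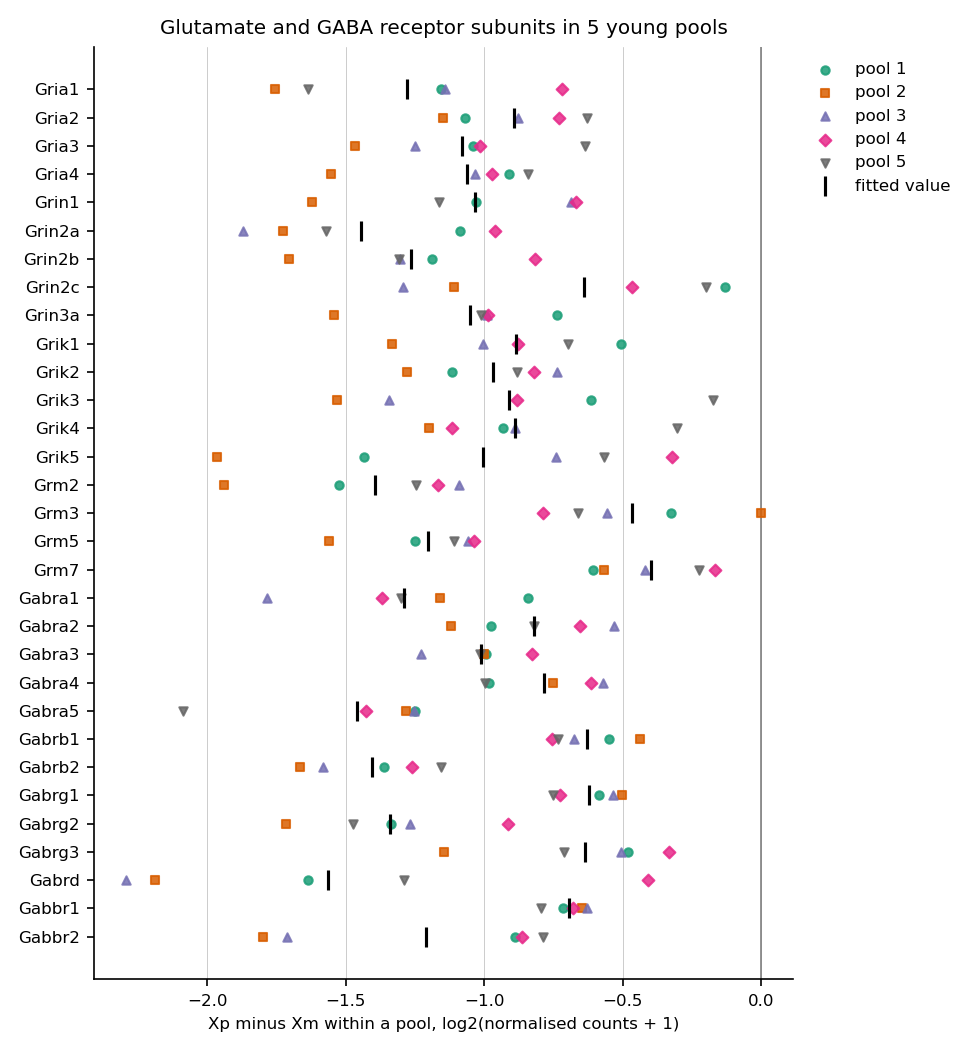
Difference Xp minus Xm within each young pool, on the scale of log2(normalised counts + 1), for 31 subunits of glutamate and GABA receptors (points, coloured by pool) and the fitted value (black bars). The 31 were picked with their values known and are not every subunit tested, the GABA-A subunit of highest fitted value (1.27, not called) being among those left out. The fitted values of the 31 drawn lie below 0, and the points of pool 2 lie furthest to the left for many subunits, as for Gria1 at −1.75.

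The machinery on both sides of the synapse followed the receptors. Of 37 genes of transmitter release 29 fell. Snap25 (chr2:136713453-136782428), a SNARE protein of vesicle fusion, measured 28001, 11404, 5665, 5159 and 8242 in Xm and 13759.5, 4745, 1979, 2667 and 2063 in Xp (−1.35 ± 0.14, adjusted p = 0.000221). Unc13b, a vesicle priming factor, was the exception that rose, by 0.39 ± 0.09 (adjusted p = 0.0092). Of 23 postsynaptic scaffolds and kinases 15 fell, among them Camk2b (chr11:5969644-6066362) with 11655, 6250.3, 1579, 1389 and 2317 in Xm and 4562, 1526, 532, 718 and 788 in Xp (−1.49 ± 0.13, adjusted p = 9.06e-05). Of 40 synaptic adhesion genes 37 fell and none rose. Nlgn1 (chr3:25426215-26332460), a postsynaptic neuroligin, measured 2572, 2882, 1845, 2878 and 2505 in Xm and 1292, 1160.4, 1002, 1512 and 1459 in Xp (−0.98 ± 0.08, adjusted p = 6.21e-05). Nlgn1 did not overlap between the groups, in contrast to Snap25 and Camk2b, whose values in pool 1 were several times those in pools 3 to 5 in both groups.

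By the same ranking and limits, the 15 largest deficits in Xp were those of Xlr3b and Xlr3a on the X chromosome and of Htr1a, Slc30a3, Slc17a7, Cpne4, Cpne6, Fam163b, Cdh9, Stk32c, Oxt, Npy2r, Kcnv1, Crym and Ano3. Slc17a7 (chr7:45163949-45176142), the vesicular glutamate transporter of most hippocampal excitatory neurons, measured 5415, 2311, 751, 387 and 1155 in Xm and 1465, 461, 120.0, 205 and 163 in Xp (−2.11 ± 0.26, adjusted p = 0.000635). Htr1a (chr13:105443639-105448122), a serotonin receptor, measured 251, 109, 46.0, 65.3 and 117 in Xm and 93.4, 39.6, 2.98, 19.3 and 5.34 in Xp (−2.47 ± 0.45, adjusted p = 0.00289). Both genes were highest in pool 1 in either group. The ranking required them to be lower in Xp in each of the 5 pools. Oxt, the oxytocin gene, owed its place to the Xm sample of pool 3, with 13.3, 8.74, 534, 1.98 and 17.3 in Xm and 6.03, 3.12, 13.9, 1.02 and 4.27 in Xp (−1.96 ± 0.65, adjusted p = 0.0402), and without that pool its fold change was −1.16 (adjusted p = 0.136). Neuropeptide genes as a list gave 17 of 25 lower and none higher, such as Sst in interneurons (−1.21 ± 0.29, adjusted p = 0.0117), and receptors for monoamines and acetylcholine gave 15 of 40 lower and 6 higher, beside 19.2% and 19.3% of all genes tested.

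Of 117 ion channel genes on 5 lists 54 fell and 19 rose (median −0.49), beside 19.2% and 19.3% of all genes tested, and without the block 13 fell and 12 rose. General markers of neurons were also lower, 13 of 16 (median −0.88), and their part in the channel families was not tested. Of 12 voltage-gated sodium channel genes 7 fell and 2 rose, and of 37 voltage-gated potassium channel genes 22 fell and 3 rose. Without the block 1 sodium channel gene fell and 1 rose, and 8 potassium channel genes fell and 3 rose. With a pool left out, the number of sodium channel genes that rose went down to 0. Scn2a (chr2:65620771-65767447), a sodium channel of axons, measured 3999, 2404, 1053, 1014 and 1422 in Xm and 2132, 883, 424, 559 and 595 in Xp (−1.15 ± 0.10, adjusted p = 6.36e-05), with the highest values of either group in pool 1. Kcnd2 (chr6:21215503-21729805), a potassium channel of dendrites, measured 1567, 1238, 736, 1106 and 1035 in Xm and 713, 573, 316, 633 and 585 in Xp (−1.02 ± 0.09, adjusted p = 7.19e-05), with no overlap. Calcium channels gave 11 of 18 lower and none higher. Channels that rose included Kcnk6 (chr7:29221926-29232515), a potassium leak channel, with 16.8 to 111 in Xm and 405 to 1056 in Xp (4.22 ± 0.33, adjusted p = 7.09e-05). Trpv2 (chr11:62574486-62600515), a cation channel that macrophages also express, measured 408 to 595 in Xm and 804 to 1294 in Xp (1.04 ± 0.15, adjusted p = 0.000607). Kcnj13 (chr1:87386363-87394729), an inward rectifier of the choroid plexus, was higher in Xp in each pool but spread from 595 to 24499 in Xm and from 1526 to 30392 in Xp (0.73 ± 0.21, adjusted p = 0.029). Kcnj13 was not called without pool 2 (adjusted p = 0.105), without pool 5 (0.0599), in pools 3 to 5 alone (0.253) or without the block (0.722).

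Immediate early genes, which cells transcribe within minutes of a stimulus, were mostly higher in Xp. Of 25 tested 17 rose in Xp and 3 fell (median 0.57), beside 19.3% and 19.2% of all genes tested. Without the block 5 of the 25 rose and none fell. Atf3 (chr1:191170296-191218039), a transcription factor of stress, measured 4555, 5803, 11675, 4269 and 8243 in Xm and 16057, 21357, 33388, 25404 and 30272 in Xp (1.93 ± 0.13, adjusted p = 3.73e-05), and its groups did not overlap. Junb (chr8:84974484-84978718), a partner of Fos, was higher in Xp in each pool, with 3780.0, 3184, 12124, 9207 and 11856 in Xm and 7809, 8369.8, 16514, 14908 and 19945 in Xp (0.87 ± 0.12, adjusted p = 0.000765), yet the Xp samples of pools 1 and 2 lay below the Xm samples of pools 3 to 5. Arc (chr15:74669083-74672570), an effector of synaptic plasticity found mainly in neurons, went the other way in each pool, with 1659, 1765, 3573, 3829 and 4018 in Xm and 1308, 1472, 2708, 2803 and 3343 in Xp (−0.34 ± 0.06, adjusted p = 0.00231). Fos itself was not called (0.17 ± 0.12, adjusted p = 0.3) and, like Junb and Arc, was lower in pools 1 and 2 than in pools 3 to 5 in both groups, at 9911, 13194, 48899, 48491 and 50633 in Xm and 15686, 17404, 50403, 46960.2 and 44061 in Xp.

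Heat shock proteins, the chaperones of stressed cells, gave 12 of 22 higher and 1 lower in Xp (median 0.29). Over all genes tested 19.3% were higher and 19.2% lower. Without the block 7 heat shock genes rose and none fell. Hspb1 (chr5:135887919-135889563), a small heat shock protein, measured 2166, 2944, 3507, 901 and 3328 in Xm and 6879, 12316, 9364, 6813 and 10459 in Xp (1.94 ± 0.20, adjusted p = 0.000338). Hspa5 (chr2:34771970-34777547), the chaperone of the endoplasmic reticulum, measured 44173, 32755, 30228, 26141 and 37887 in Xm and 70578, 60012, 49458, 54555 and 77094 in Xp (0.87 ± 0.08, adjusted p = 7.47e-05). Neither overlapped between the groups. Cryab (chr9:50751325-50756636), another small heat shock protein that is abundant in oligodendrocytes, fell (−0.60 ± 0.09, adjusted p = 0.000637). Hspa1a and Hspa1b rose by 1.25 ± 0.13 and 1.38 ± 0.13, but the genes are near-identical and reads could be split between them.

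Few genes of mitochondrial energy metabolism were called over the 5 pools. Of 116 genes of the tricarboxylic acid cycle and oxidative phosphorylation, 2 rose and 3 fell (median −0.06). Over all genes tested 19.3% rose and 19.2% fell. In pools 3 to 5 alone 37 of the 116 fell and 1 rose, and 10 fell when pool 2 was left out. Of 24 genes of glycolysis and glucose uptake 6 rose and 4 fell, beside 19.3% and 19.2% of all genes tested, and in pools 3 to 5 alone 6 rose and 14 fell. Hk2 (chr6:82725025-82774454), an inducible hexokinase, measured 121, 72.8, 143, 122.7 and 174 in Xm and 372, 309, 499.9, 501 and 583 in Xp (1.85 ± 0.13, adjusted p = 2.59e-05), and Hk3 (chr13:55005985-55021385), a hexokinase of myeloid cells, rose, with 12.4 to 48.2 in Xm and 273 to 659.7 in Xp (3.89 ± 0.29, adjusted p = 4.13e-05). The glucose transporter of the blood-brain barrier, Slc2a1, rose (1.48 ± 0.14, adjusted p = 0.000108) and that of neurons, Slc2a3, fell (−0.67 ± 0.12, adjusted p = 0.00233), as did the neuronal enolase Eno2 (−0.82 ± 0.12, adjusted p = 0.000828). Cholesterol synthesis, a pathway that is busy in myelinating cells, gave 14 of 24 lower and none higher (median −0.38), for example Dhcr7 (chr7:143823145-143848410) with 1084, 1539, 2213, 3523 and 2395 in Xm and 839.5, 1029, 1515, 2212 and 1584 in Xp (−0.55 ± 0.07, adjusted p = 0.0003). The count of lower genes of this pathway was 1 without the block and 20 in pools 3 to 5 alone. Oligodendrocyte markers moved in the same direction, as given below, and their part in this pathway was not tested.

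Ribosomal protein genes that passed the test were all higher in Xp. Of 85 tested 38 rose, none fell and 47 were not called, with a median of 0.23. Over all genes tested 19.3% rose and 19.2% fell. Among 63 translation factors 16 rose and 7 fell, beside 19.3% and 19.2% of all genes tested. Those that fell included Eef1a2 (−1.32 ± 0.33, adjusted p = 0.0109), the elongation factor of neurons and muscle, and their number was 4 by edgeR and after TMM rescaling, 1 without the block and 3 without pool 2 or without pool 3. Translation factors that rose numbered 5 without the block. The count of ribosomal protein genes that rose was 16 without the block and ranged from 25 to 39 when a pool was left out.

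Markers of other cell types moved in both directions. All 12 oligodendrocyte markers (median −0.80) and all 9 markers of their precursors (median −1.01) fell in Xp, beside 19.2% of all genes tested. Without the block 1 of the oligodendrocyte markers and 6 of the precursor markers were called lower. Pdgfra (chr5:75152292-75198215), the growth factor receptor of the precursors, measured 18704, 32522, 14352, 21539 and 26161 in Xm and 10052, 11767, 7099, 11033 and 15953 in Xp (−1.01 ± 0.10, adjusted p = 0.000103). Endothelial cells line vessels, and all 10 of their markers rose (median 1.93), as Cldn5 (chr16:18776847-18778262), a tight junction protein, shows with 1204, 2685, 3838, 673 and 2562 in Xm and 4479.7, 11008, 8136, 6469 and 7976 in Xp (1.98 ± 0.27, adjusted p = 0.00116). All 8 markers of pericytes and smooth muscle, 5 of 5 of erythroid cells and 10 of 12 of ependyma and choroid plexus also rose. The count of erythroid markers called higher was 1 in pools 3 to 5 alone. The endothelial count was 1 in pools 3 to 5 alone, where the fold change of Cldn5 was 2.00 (adjusted p = 0.126). That of ependyma and choroid plexus was 0 without the block, 4 in pools 3 to 5 alone and 5 without pool 2. Of 10 astrocyte markers 1 fell, S100b (−0.57 ± 0.08, adjusted p = 0.000635), and in pools 3 to 5 alone 10 did. Of 5 markers each, 4 of B cells and 1 of T cells rose, beside 19.3% of all genes tested. The T cell count was 3 in pools 3 to 5 alone and up to 3 with a pool left out. The B cell count was 2 without the block.

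Of 666 X-linked genes tested 118 rose in Xp (17.7%) and 164 fell (24.6%), beside 19.3% and 19.2% of all genes tested, a difference that was not tested, with a median of −0.06 beside −0.03 over all genes. The families on this chromosome differed from each other. The 26 X-linked genes of immune cells gave 19 higher and none lower (median 2.10), beside 20 of 20 microglia markers, most of them on other chromosomes, and the part of these cells was not tested. Was (chrX:8081453-8090498), a regulator of actin in blood cells, measured 3.81, 2.91, 10.3, 7.92 and 4.82 in Xm and 63.3, 61.5, 148, 203 and 211 in Xp (4.23 ± 0.30, adjusted p = 2.78e-05), and Msn (chrX:96096042-96168552), which ties actin to the membrane, 2948, 3804, 5605, 2961 and 3868 in Xm and 9657, 15114, 13791, 16051 and 17890.5 in Xp (1.93 ± 0.15, adjusted p = 7.09e-05), without overlap in either. In contrast, of 10 genes of the Bex and Tceal families, small proteins abundant in brain, 8 fell (median −0.90). Bex2 (chrX:136066564-136068236) measured 6491, 4267, 1934, 2383 and 3044 in Xm and 3042, 1745, 1025, 1331 and 1510.5 in Xp (−1.03 ± 0.08, adjusted p = 3.73e-05), lower in Xp in each pool and highest in pool 1. All 5 X-linked Mage genes tested fell, the most for Magee2 (−1.16 ± 0.15, adjusted p = 0.000417). Neuronal markers moved in the same direction as these 2 families, and their part was not tested. Of 52 genes linked to X-linked intellectual disability 23 fell, among them Pak3 (−1.13 ± 0.09, adjusted p = 4.95e-05), and 9 rose, among them Rps6ka3 (0.75 ± 0.12, adjusted p = 0.000878), beside the 24.6% and 17.7% of all X-linked genes tested.

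The Xlr family, germ line and lymphocyte genes in clusters of near-identical copies, split within itself. Xlr3b (chrX:73192207-73202930) measured 526, 641, 339, 466 and 1315 in Xm and 37.2, 37.5, 44.6, 134 and 67.2 in Xp (−3.36 ± 0.35, adjusted p = 0.000229), and Xlr3a (chrX:73086293-73097095) 147, 112, 54.4, 62.3 and 201.3 in Xm and 28.1, 25.0, 18.8, 14.2 and 19.2 in Xp (−2.26 ± 0.28, adjusted p = 0.000262). The Xp values of both lay below all Xm values, and the pool term was called for neither (adjusted p = 0.301 and 0.178). Xlr (chrX:53777118-53797706) was higher in Xp, with 15.2, 31.1, 40.3, 14.8 and 29.9 in Xm and 83.3, 187, 226, 274 and 368 in Xp (3.02 ± 0.29, adjusted p = 8.44e-05), and Xlr4b was not called (0.12 ± 0.66, adjusted p = 0.905). Reads of these genes can be shared between copies, so the values of single members are uncertain.

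Of 20 regulators of X inactivation and Polycomb genes 6 rose and 3 fell, and 3 rose without pool 4 or without pool 5, beside 19.3% and 19.2% of all genes tested. Xist (chrX:103460366-103483254), the RNA that coats the inactive X, measured 9146, 10527, 7469.6, 8000.2 and 7477 in Xm and 8640.1, 7536, 7322, 7678 and 7465 in Xp (−0.13 ± 0.08, adjusted p = 0.242), and the groups overlapped. Its neighbour Ftx (chrX:103560907-103623790), which promotes Xist, fell (−0.64 ± 0.13, adjusted p = 0.00462), and Rlim (chrX:103957163-103981284), a ubiquitin ligase that also promotes it, rose (0.62 ± 0.07, adjusted p = 0.00019). Of 16 genes known to escape inactivation 5 rose and 1 fell. Ddx3x (chrX:13280970-13294052), an RNA helicase, measured 4617, 4714, 4553, 4380.0 and 4566 in Xm and 6384, 6361, 6567, 7004 and 6042 in Xp (0.50 ± 0.07, adjusted p = 0.000359) with little spread between pools, whereas the demethylase gene Kdm6a was not called (0.12 ± 0.07, adjusted p = 0.222). Hprt (chrX:52988137-53021659), the locus of the reporters, was higher in Xp in each pool, with 1060.3, 517, 398, 392 and 321 in Xm and 1353, 1145, 612, 662 and 654 in Xp (0.78 ± 0.12, adjusted p = 0.00104).

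Of 18 imprinted genes of other chromosomes read from the maternal allele 6 rose in Xp and 5 fell, and of 26 read from the paternal allele 1 rose and 7 fell, beside 19.3% and 19.2% of all genes tested, and no difference from all genes was tested. Asb4 (chr6:5383386-5433022), maternally expressed, rose, with 112 to 378 in Xm and 509 to 1118 in Xp (2.15 ± 0.20, adjusted p = 9.24e-05), and Meg3 (chr12:109541001-109571726), a maternally expressed RNA abundant in neurons, fell (−0.78 ± 0.16, adjusted p = 0.0067). Rasgrf1 (chr9:89909908-90026977), paternally expressed in brain, fell, with 2215 to 8229.8 in Xm and 858 to 3406 in Xp (−1.36 ± 0.09, adjusted p = 2.09e-05).

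**Figure D4:**
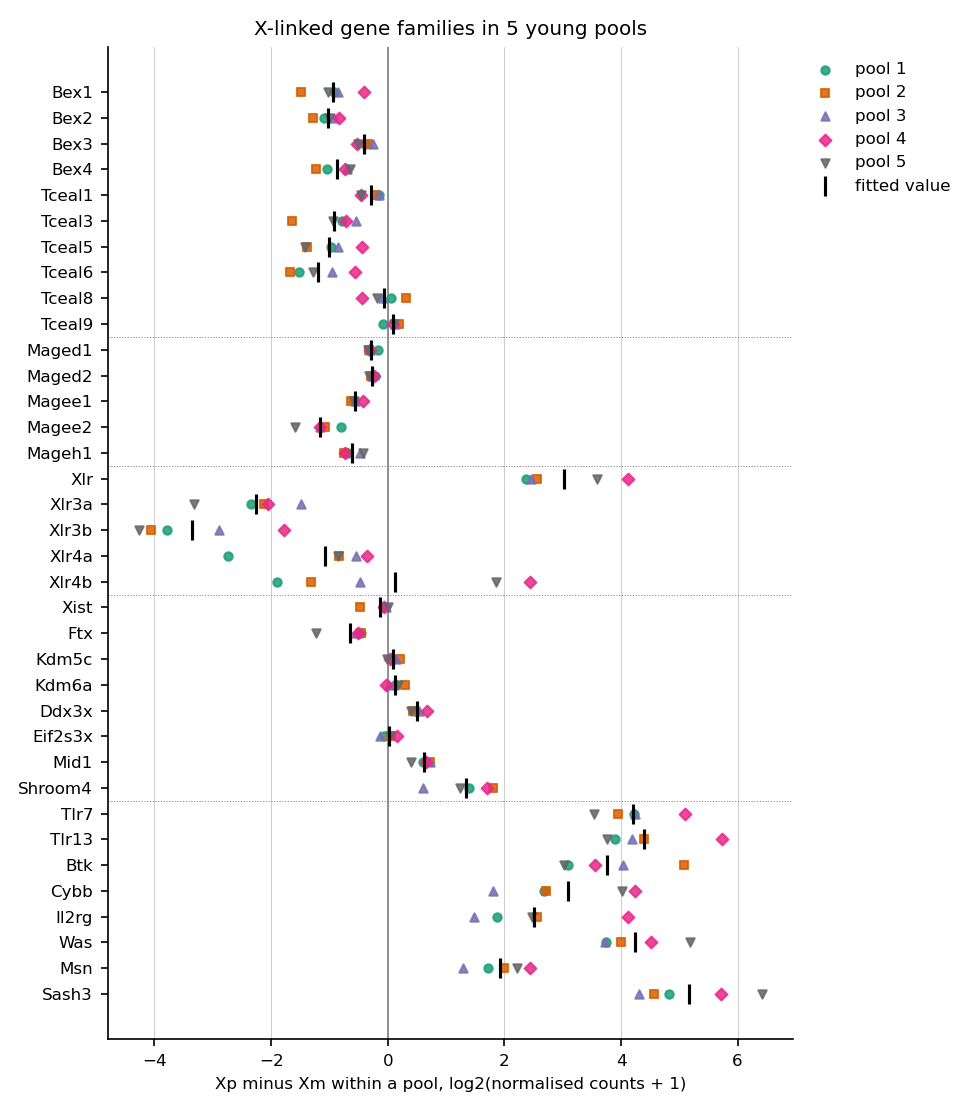
Difference Xp minus Xm within each young pool, on the scale of log2(normalised counts + 1), for X-linked genes of the Bex and Tceal, Mage, Xlr, X inactivation and immune groups, separated by dotted lines, with the fitted value as a black bar. Fitted values include −3.36 for Xlr3b and 5.16 for Sash3, an adaptor of lymphocytes, and the highest of the whole immune list is 5.47 for Gpr34. The points of Xist run from −0.482 in pool 2 to −0.00232 in pool 5.

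Samples of the same number deviated together from their group means, with correlations across genes of 0.716, 0.496, 0.521, 0.498 and 0.441 in pools 1 to 5. The pools took a median of 53.5% of a gene's sum of squares, Xp against Xm 20.4%, and the residual 13.2%, shares that rest on different numbers of coefficients and were not compared with each other. An F test of the pool term in the same limma fit called 5795 genes (30.0%), of which 3241 also differed between Xp and Xm. Without pool 1 it called 2683 and within pools 3 to 5 alone 1256. The first principal component (41.2% of the variance) separated Xm from Xp, and the second (28.9%) separated pools 1 and 2 from pools 3 to 5.

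The pool term was called for 9 of 10 astrocyte markers, 12 of 12 markers of ependyma and choroid plexus, 12 of 13 mitochondrially encoded genes, 12 of 12 oligodendrocyte markers and 2 of 20 microglia markers. Over all genes tested it was called for 30.0%. The mean level of astrocyte markers on the log2 scale was 11.78, 12.35, 14.31, 14.78 and 14.16 in the Xm samples of pools 1 to 5 and 11.99, 12.68, 13.91, 14.04 and 13.65 in the Xp samples. That of ependyma and choroid plexus was 11.57, 11.24, 10.88, 8.67 and 9.04 in Xm and 12.29, 12.04, 11.22, 9.63 and 9.59 in Xp. Pools 1 and 2 were thus lowest in astrocyte markers, and pools 4 and 5 lowest in choroid plexus markers, in both groups. Otx2 (chr14:48657677-48673819), a transcription factor of the choroid plexus, measured 3152, 1608, 612, 180.1 and 131 in Xm and 4085, 2814, 761, 341 and 180.4 in Xp (pool term adjusted p = 1.09e-05). Emb (chr13:117208536-117274415), a membrane glycoprotein with the smallest p of the pool term, measured 5215, 3737, 1213, 413 and 405 in Xm and 6969, 5272, 1249.7, 632 and 480.4 in Xp (pool term adjusted p = 1.09e-05). Slc6a11 (chr6:114131241-114249952), a GABA transporter of astrocytes, had the opposite order of pools, with 1031, 1757, 5207, 9616 and 5698 in Xm and 659.8, 1032, 3447, 5293 and 2832 in Xp (pool term adjusted p = 1.22e-05). The other genes among the 10 smallest p-values were Calml4, Sema3b, Sulf1, Steap1, Spint2, Serinc2 and Fam163a.

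The pool term was called for 115 of 168 synapse genes and for 55 of 199 innate immune genes, beside 30.0% of all genes tested, and the difference between these counts was not tested. The mean level of excitatory neuron markers was 9.53, 8.37, 7.17, 7.04 and 7.67 in Xm and 8.54, 7.003, 6.24, 6.52 and 6.19 in Xp, highest in pool 1 in both groups. Within every pool the Xp sample was lower. Microglia markers had 7.30, 7.37, 7.98, 7.15 and 9.06 in Xm and 12.10, 12.16, 12.76, 13.26 and 13.23 in Xp, so that the lowest Xp sample was above the highest Xm sample. Neutrophil markers were at most 72.2 summed counts in Xm samples and reached 1028 in the Xp sample of pool 3, and S100a8 and S100a9 were at 0 in at least 1 sample of each group. Ngp, a granule protein of neutrophils, measured 4.76, 5.83, 14.1, 13.9 and 10.6 in Xm and 2.01, 1.04, 393, 14.2 and 7.47 in Xp.

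**Figure D5:**
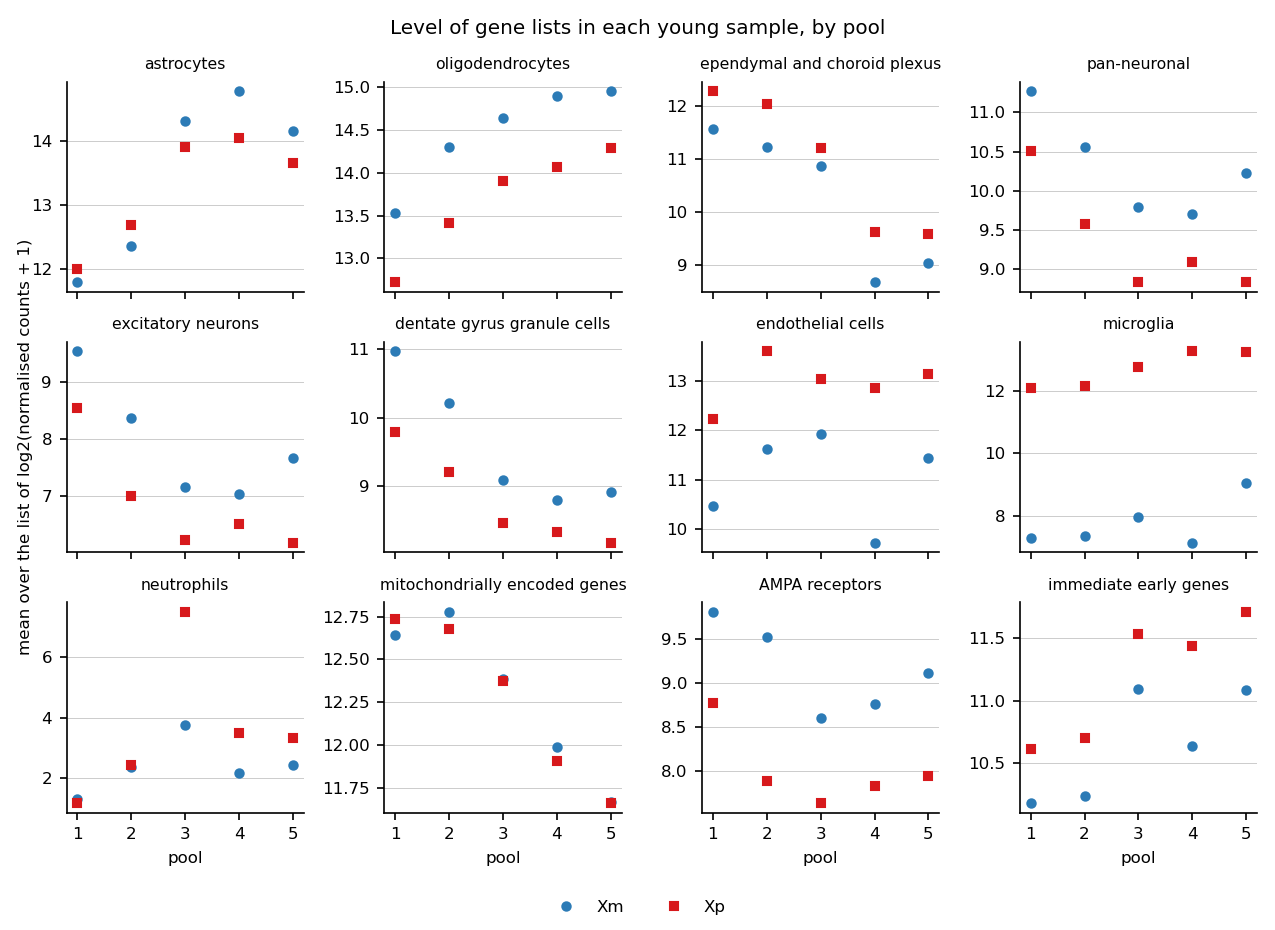
Mean over each of 12 gene lists of log2(normalised counts + 1) in the Xm (circles) and Xp (squares) sample of pools 1 to 5. Astrocyte markers stand at 11.78 and 12.35 in the Xm samples of pools 1 and 2 and above that in pools 3 to 5, choroid plexus markers are lowest in pools 4 and 5, and microglia markers are separated by group in each pool.

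The direction of the difference between Xp and Xm was shared by the pools. Of the genes called when pool 1 was left out, 93.8% had the same sign in pool 1, and the shares for pools 2, 3, 4 and 5 were 95.5%, 97.3%, 96.2% and 96.1%. The size differed more than the sign. The median difference of microglia markers was 4.78, 4.74, 4.67, 6.35 and 4.17 in pools 1 to 5, largest in pool 4. For AMPA receptors it was −1.04, −1.75, −0.95, −0.84 and −1.02, largest in size in pool 2.

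The difference between Xp and Xm was last compared between young and old mice, with 5 pools of each age. No gene of 19118 passed the test of the difference (limma interaction with 10 pools as a block, 0% called, lowest adjusted p = 0.654), while 1008 had an unadjusted p under 0.05 and 383 did without the block, where 956 would be reached on average if no gene differed and the p-values were evenly spread. Of the young called genes with an old value, 7324 of 7429 (98.6%) had the same sign in old samples, where each age was normalised on its own. The smallest p belonged to Pde8b, a phosphodiesterase, with −0.12 in young and 0.45 in old samples. Hspa1b followed among the first 5 genes, with 1.38 in young and 0.24 in old samples, and neither passed. The median of the 22 heat shock genes was 0.29 in young and 0.23 in old samples.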

How the data were processed

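The authors mapped trimmed paired reads to GRCm38 with STAR 2.5.2b, counted reads per gene with featureCounts of Subread 1.5.2 and normalised with DESeq2, according to the methods and the submitters' processing notes. The deposited values are a signal, gene counts divided by 1 size factor per sample, normalised separately in the young and the old table. Every value was a whole multiple of the sample's step (100% within 0.01 reads), so whole reads were recovered. Columns of the authors' own fold changes and p-values were not used. The young table ended part-way through a line, which was dropped, and 2148 genes of the old table with later identifiers were not analysed here for young samples. Coordinates and symbols came from GENCODE M21 (GRCm38), which matched 99.8% of the identifiers.

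Genes with a mean of at least 10 over the 10 young samples were tested with limma 3.58.1 (R 4.3.3) on log2(normalised count + 1), with trend and robust moderation and the pool as a block. The log2 scale with a pseudocount understates changes of low genes. A moderated F test of the pool coefficients and an interaction of group and age used the same scale. Samples of the same number share a pool by the study's methods, and the correlation of their deviations was 0.441 to 0.716. The pools are the replicates. With the block, differences in level between pools are removed. The p-values of Xp against Xm therefore measure how the difference within a pool varied between pools. The count test on whole reads with edgeR 4.0.16 called 7218 genes, and DESeq2 1.42.0 was also run. Other alternatives were no block, pseudocounts of 0.5 and 5, no filter, a mean of at least 50, TMM rescaling, each pool left out, and pools 3 to 5 alone, the last chosen after the data were seen. Tests were checked on simulated data. Members and the 86 gene lists were chosen with earlier results of these data known. Named genes were members of lists of at most 40 genes, 3 per direction by adjusted p from longer lists, the 15 largest fold changes per direction among genes called alike in all 5 pools with a mean of at least 100 in the higher group, the 10 smallest p of the pool term, and the genes of smallest p for age. Motifs were searched with Python 3.11.15 and figures drawn with matplotlib 3.10.9. Some items withheld for evaluation are not reported here.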

Additional observations from a re-analysis of the deposited data

Results flagged for a closer look

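Of 390 groups of 5 young samples examined, each a gene or list in Xm or Xp, 20 held a sample whose gap to its nearest neighbour was large against the range of the group by Dixon's test. Chance alone gives about 1 group in 20. Of these, 8 were the Xp sample of pool 1 standing above the other Xp samples in the mean log2 level of a list of receptor, scaffold or channel genes. The level was 8.78 for AMPA receptors, 8.34 for NMDA receptors, 8.49 for metabotropic glutamate receptors, 8.21 for GABA-A receptors, 9.45 for postsynaptic scaffolds, 8.30 for sodium channels, 7.68 for HCN and TRP channels and 6.35 for monoamine and acetylcholine receptors. The Xm sample of pool 1 stood apart for 2 lists, at 6.61 for monoamine and acetylcholine receptors and 11.3 for respiratory chain complexes III and IV. These lists share samples, and several share roles, so the entries are not independent of each other.

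Single genes stood apart in 10 groups. In Xp samples, pool 1 was apart for Asb4 at 509, B2m at 9590, Stat2 at 1135 and Xist at 8640 normalised counts, pool 3 for Grik2 at 567 and Kcnd2 at 316, and pool 4 for H2-Ab1 at 2720 and Tap1 at 635. In Xm samples, pool 4 was apart for Isg15 at 30.7, and pool 5 for Il1a at 822.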

How the results depend on the processing

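Without the pool as a block 3294 genes were called, 2114 higher and 1180 lower in Xp, 204 of them lower by more than 1 log2 unit, and 3293 of the 3294 were also called with the block. The pairing comes from the study's methods, by which each pool was sorted into an Xm and an Xp sample. Of 109 genes named with values, 36 were called with the block and not without it. Within pools 3 to 5 alone, an alternative chosen after the data were seen, 397 genes were lower by more than 1 log2 unit and 1256 were called for the pool term. With each pool left out in turn, the total ran from 6191 to 6634, genes higher from 3160 to 3453, genes lower from 2948 to 3248, genes higher by more than 1 from 1523 to 1751, genes lower by more than 1 from 399 (without pool 2) to 683, and the pool term from 2683 (without pool 1) to 6014. DESeq2 called 7545 and edgeR 7218 genes with the block, TMM rescaling gave 7314 and a minimum mean of 50 gave 7025. Fold changes of uncalled genes that crossed 0 were those of Irak1 (0.017 after TMM rescaling, 0.016 by edgeR, 0.39 in pools 3 to 5, and −0.23 to 0.16 with a pool left out), Tlr3 (−0.31 in pools 3 to 5, and −0.13 to 0.18 with a pool left out), Fos (−0.068 in pools 3 to 5), and, with a pool left out, Cx3cl1 (−0.054 to 0.16), Ngp (−0.77 to 0.84) and Xlr4b (−0.46 to 0.62), and the cause was not tested. Calls of Ccl27a, Cxcl14, Dnmt1, H2-Ab1, Kcnj13 and Oxt were lost when some single pools were left out. In pools 3 to 5 alone Hspb1, Ifit1, Gbp2 and Eef1a2 were not called (adjusted p = 0.0728, 0.0804, 0.0733 and 0.0785). Their fold changes there were 1.995, 1.86, 1.80 and −1.39. No gene passed the test of the difference between ages under any alternative run. Depth limits the lowest genes, those with means near the minimum of 10 normalised counts.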

Other observations

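Further families outside the comparisons above are described by their counts in the young samples, to be read beside the 19.3% of all genes tested that were higher in Xp and the 19.2% that were lower, and no cause of these differences was tested. Receptors for interleukins and for ligands of the TNF family gave 37 of 57 higher in Xp and 3 lower (median 1.22), with Csf3r, the receptor of granulocyte colony-stimulating factor, among the 3 of smallest adjusted p (5.36 ± 0.26, adjusted p = 1.35e-05) and Il12rb1 among those that fell (−0.71 ± 0.14, adjusted p = 0.00353). Receptors for purines gave 8 of 16 higher and 1 lower. Adora3, an adenosine receptor, measured 1.91, 0, 5.63, 14.8 and 12.5 in the Xm samples of pools 1 to 5 and 89.4, 79.2, 197, 256 and 254 in the Xp samples (4.89 ± 0.35, adjusted p = 3.15e-05), whereas Adora1, the adenosine receptor that quiets neurons, measured 4553, 5280.1, 4346, 5493 and 5694 in Xm and 2404, 2403, 2458, 2944 and 3465 in Xp (−0.90 ± 0.07, adjusted p = 4.86e-05). Both adenosine receptors were apart between the groups in every pool, in opposite directions. Integrins, the receptors for matrix, gave 13 of 31 higher and 4 lower, and genes of the TGF-beta pathway 11 of 25 higher and 3 lower. Among 43 collagens 16 rose, such as Col4a1 of basement membranes (1.29 ± 0.11, adjusted p = 6.91e-05), and 8 fell, such as Col11a2 (−0.85 ± 0.09, adjusted p = 0.000142).

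Families of axon guidance and growth were also examined. Of 31 semaphorins and plexins 12 fell and 10 rose, and the guidance cue Sema3e measured 514, 797, 454, 584 and 771 in Xm and 369, 315, 207, 218 and 355 in Xp (−1.10 ± 0.14, adjusted p = 0.000373). Of 15 neurotrophins and their receptors 8 fell, among them Bdnf, the growth factor of active neurons, with 978, 497, 105, 99.9 and 139 in Xm and 364, 160.4, 39.7, 86.5 and 69.4 in Xp (−1.13 ± 0.21, adjusted p = 0.00271), and 1 rose, Ret, the signalling receptor for GDNF (1.37 ± 0.17, adjusted p = 0.000282). The Xp samples of both Sema3e and Bdnf were lower in each pool. Of 41 clustered protocadherins 17 fell and none rose, although reads of these genes can be shared between near-identical members. The machinery of DNA methylation gave 3 of 15 lower, Tet1 (−0.65 ± 0.10, adjusted p = 0.000924), Trim28 (−0.34 ± 0.06, adjusted p = 0.00254) and Dnmt1 (−0.27 ± 0.07, adjusted p = 0.0152), and none higher, beside 19.2% of all genes tested that were lower in Xp. Dnmt1 was not called without pool 5 (adjusted p = 0.0541), in pools 3 to 5 alone (0.0735) or without the block (0.101).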
